A study of Mus musculus with 2 samples.

Results

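The cornified envelope genes of the epidermal differentiation complex were followed in single cells of mouse skin: every gene whose symbol begins with Sprr or Lce, together with Lor, Flg, Flg2, Ivl, Hrnr, Rptn and Tchh. That rule found 45 genes among 55353 gene symbols. They were divided into 22 inflammation-type genes (all Sprr genes except Sprr4, and the Lce3 genes), 18 terminal genes (Lor, Flg, Flg2, Hrnr and the Lce1 genes) and 5 other members (Ivl, Rptn, Tchh, Sprr4 and Lce6a). No count was recorded in either library for 3 of the 45, Sprr2a1, Sprr2a2 and Sprr3. The 29 members with at least 100 counts in epithelial cells are named with their values.

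The study measured dorsal skin of C57BL/6 mice at 7 weeks of age by 3′ single-cell RNA sequencing, in 2 libraries. Imiquimod, an agonist of Toll-like receptor 7 that gives psoriasis-like inflammation when applied to mouse skin, was used in both groups. One library came from skin that received imiquimod alone, and the other from skin that received Shi-Bi-Man + imiquimod, Shi-Bi-Man being the preparation under test. Skin without imiquimod and skin given Shi-Bi-Man alone were not analysed here, and the number of mice behind each library is not stated in the labels. With 1 library per group no test between groups is possible. Every interval given is an exact 95% interval that covers counting error only, and a difference between the libraries is not shown to be a difference between the treatments.

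As background, the cornified envelope is the cross-linked protein shell that replaces the plasma membrane of a keratinocyte as it dies at the skin surface. Involucrin and the scaffold proteins are laid down first, transglutaminases then join loricrin and the small proline-rich (SPRR) and late cornified envelope (LCE) proteins to them, and filaggrin bundles keratin before it is broken down to amino acids that hold water. SPRR and LCE3 genes are known for their induction in wounded, stressed and psoriatic epidermis, while loricrin, filaggrin, hornerin and the LCE1 genes mark the late steps of normal keratinization. In the mouse all these genes lie in 1 cluster, and here all 45 fell on chromosome 3, at chr3:92080271-93449077 of GRCm38, a span of 1368.81 kb.

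Because several members are near copies of each other, the first 60 coding bases (GRCm38, GENCODE annotation) are printed for the Sprr2 genes on which the contrast within that family turned. Capitals mark bases that differ from Sprr2d.
Sprr2d: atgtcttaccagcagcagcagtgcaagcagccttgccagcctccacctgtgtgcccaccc
Sprr2h: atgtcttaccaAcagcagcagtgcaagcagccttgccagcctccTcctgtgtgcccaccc
Sprr2i: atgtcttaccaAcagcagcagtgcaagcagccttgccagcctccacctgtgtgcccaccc
Sprr2a3: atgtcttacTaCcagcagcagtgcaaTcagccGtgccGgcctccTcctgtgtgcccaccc
Sprr2b: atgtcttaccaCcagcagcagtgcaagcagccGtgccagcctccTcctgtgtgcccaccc
Sprr2h differed from Sprr2d at 2 of these bases, Sprr2i at 1, Sprr2b at 3 and Sprr2a3 at 6. The Lce1 genes begin alike too, as shown by the one with most counts (Lce1f) and one seen mostly in 1 cell (Lce1m), printed without marked bases.
Lce1f: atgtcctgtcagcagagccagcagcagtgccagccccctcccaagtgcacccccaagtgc
Lce1m: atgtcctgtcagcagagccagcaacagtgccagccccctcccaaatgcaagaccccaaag
A 3′ library reads the other end of the transcript, so the last 400 bases were compared as well. Of the 45 members, 20 shared no 60-base stretch there with another gene of the annotation, and 3 shared over 50% of them: Sprr2a1 and Sprr2a2 shared 100% and Sprr2a3 shared 74.8%. For Lce3c and Lce3d the shares were 42.2% and 41.3%. How reads with several matches were counted is not given in the sources used here, so values for Sprr2a3, Lce3c and Lce3d are uncertain to that extent.

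The 2 families also differed in the letters just upstream of their starts, shown for genes that were high together (Sprr2d, Sprr2h, Lce3d) and for Lor. Each line is the 200 bases before the gene's start (RefSeq, GRCm38.p6), read 5′ to 3′ on the gene's strand, with the motifs TGANTCA, which AP-1 factors bind, and TATAAA, the core of the classic start-site box, in capitals.
Sprr2d, chr3:92338940-92339139, plus strand: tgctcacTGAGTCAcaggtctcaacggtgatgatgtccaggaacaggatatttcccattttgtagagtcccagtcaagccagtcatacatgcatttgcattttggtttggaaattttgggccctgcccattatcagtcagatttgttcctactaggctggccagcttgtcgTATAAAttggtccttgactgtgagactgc
Sprr2h, chr3:92385485-92385684, plus strand: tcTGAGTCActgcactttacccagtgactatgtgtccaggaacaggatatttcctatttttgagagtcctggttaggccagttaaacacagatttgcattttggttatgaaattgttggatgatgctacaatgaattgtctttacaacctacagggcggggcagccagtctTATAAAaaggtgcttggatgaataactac
Lce3d, chr3:92957190-92957389, plus strand: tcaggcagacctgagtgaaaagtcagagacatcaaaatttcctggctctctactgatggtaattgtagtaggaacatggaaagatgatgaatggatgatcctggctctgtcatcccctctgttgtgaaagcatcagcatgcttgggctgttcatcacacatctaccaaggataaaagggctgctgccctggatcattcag
Lor, chr3:92083143-92083342, minus strand: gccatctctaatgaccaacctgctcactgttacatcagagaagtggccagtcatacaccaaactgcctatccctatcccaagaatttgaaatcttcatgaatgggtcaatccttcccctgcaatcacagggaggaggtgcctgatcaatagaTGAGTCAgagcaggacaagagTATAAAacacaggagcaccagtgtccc
Sprr2d, Sprr2h and Lor each hold 1 match of both motifs, and Lce3d holds neither. RefSeq start regions were matched for 41 members, and both strands of the 250 bases upstream were searched for the 2 motifs, which do not overlap. TGANTCA was found for 9 of 14 Sprr genes and for 0 of 20 Lce genes, against 6.87% of 27025 start regions in the table. TATAAA was found for 10 of 14 Sprr and 4 of 20 Lce genes, against 13.0% of all. By list, TGANTCA was found for 9 of 19 inflammation-type and 3 of 17 terminal genes. A match is a description of letters and not a measured binding site.

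The imiquimod library held 11316 barcodes and 28920316 counts, and the Shi-Bi-Man library held 8054 barcodes and 20837259 counts. After filters 11019 and 7863 cells remained, with medians of 1616 and 1780 counts per cell. The libraries shared 49 barcodes. Members took 0.342% of all counts with imiquimod alone (98819 counts) and 0.956% with Shi-Bi-Man (199218 counts). Doublets could not be called in the imiquimod library, where the caller marked 0 cells, while it marked 1.04% of the Shi-Bi-Man cells.

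Keratinocyte layers were named from markers that include no member, on clusters made with the members left out of the clustering genes. The 2 libraries did not hold the same layers. A granular layer, named from markers such as Casp14, Asprv1, Cnfn and Cdsn, held 0 cells with imiquimod and 386 with Shi-Bi-Man. A stress keratin layer, named from markers such as Krt6a, Krt6b, Krt16 and S100a8, held 393 cells with imiquimod and 2 with Shi-Bi-Man. Spinous cells numbered 27 and 524, basal 248 and 556, cycling 178 and 101, upper follicle 423 and 157, outer root sheath and bulge 533 and 548, and epithelial cells in unnamed clusters 194 and 277. Under 8 settings of the clustering the granular layer never held an imiquimod cell, and the stress keratin layer held 1 to 5 Shi-Bi-Man cells. The size of the layers was less stable. Over these settings the granular layer held 97 to 386 Shi-Bi-Man cells and the spinous layer 524 to 985. The setting used here gave the most granular and the fewest spinous cells, and the granular values below rest on it. Stress keratin cells with imiquimod numbered 323 to 393. Layer and library therefore cannot be told apart in those 2 layers, and their levels are set side by side without a ratio. Keratinocytes in all, the sum of these layers, were 1996 and 2551 cells.

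Free RNA has to be stated before any low level is read. Fibroblasts, T and NK cells, macrophages and monocytes, and blood endothelial cells should lack these transcripts, yet all 4 classes held them. Inflammation-type genes summed to between 400.2 and 645.9 counts per 1000000 counts (CPM) in the imiquimod cells of these classes and to between 1082 and 2365 CPM in the Shi-Bi-Man cells, or 0.79 to 1.07 counts per cell in the first library and 1.92 to 2.77 in the second. The terminal sum ran from 14.2 to 25.6 CPM and from 77.5 to 208.4 CPM respectively. Sprr1a made up 50.9% to 54.2% of the member counts in the 4 classes with imiquimod, against 50.6% in the whole library, and 43.9% to 49.5% with Shi-Bi-Man, against 47.9%. Other members matched the library less closely: Sprr1b was 15.05% to 18.9% of these counts with imiquimod, against 20.9%, and Flg was 2.69% to 3.27% with Shi-Bi-Man, against 4.66%. Levels at or below these ranges are read as background in what follows.

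**Figure D1:**
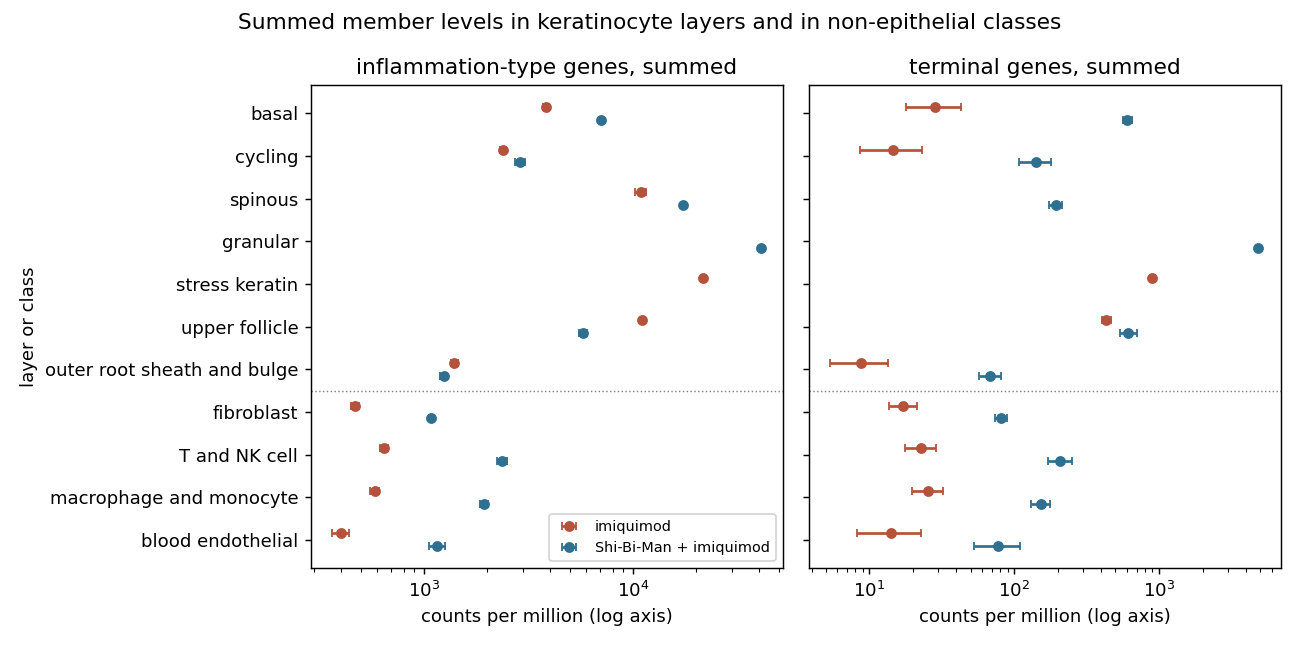
Summed CPM (log axis) of the inflammation-type genes (left) and the terminal genes (right) in each keratinocyte layer and, under the dotted line, in 4 non-epithelial classes; points are libraries and bars are exact 95% counting intervals, and layers with under 20 cells in a library have no point. The terminal sum in granular cells (4806 CPM) and in stress keratin cells (899 CPM) lies above every non-epithelial class, while with imiquimod the cycling cells (14.6 CPM) lie within the range of those classes, the outer root sheath and bulge cells (8.79 CPM) below it and the basal cells (28.4 CPM) just above it.

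Both lists stood higher in the Shi-Bi-Man keratinocytes, and the terminal list by the larger ratio. Inflammation-type genes summed to 9228 CPM in the first library and 16955 CPM in the second, a log2 ratio of Shi-Bi-Man over imiquimod of 0.88 (interval 0.87 to 0.89). Terminal genes summed to 368.6 and 1753 CPM, a log2 ratio of 2.25 (2.20 to 2.30). Of the counts of both lists together, terminal genes were 3.84% with imiquimod (3.71% to 3.97%, Clopper-Pearson) and 9.37% with Shi-Bi-Man (9.24% to 9.51%). In the 4 non-epithelial classes the same ratios ran from 1.20 to 1.87 for the inflammation-type sum and from 2.24 to 3.19 for the terminal sum, so the free RNA differed between the libraries by about as much as the keratinocytes did, or more. Without the granular and stress keratin layers the terminal log2 ratio was 2.05 and the terminal percentages were 3.60% and 7.77%.

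Gene by gene, a member was counted as higher or lower where it had at least 20 counts over both libraries and differed at least 1.5-fold. In keratinocytes 14.4% of 14156 such genes were higher with Shi-Bi-Man and 12% were lower, with a median log2 ratio of 0.00. Among the inflammation-type genes 17 were measured, of which 10 were higher and 3 lower, with a median log2 ratio of 0.89. Among the terminal genes 17 were measured and all 17 were higher, with a median log2 ratio of 5.61 where 0.5 count was added to each value, or 4.56 with the 7 genes at 0 in 1 library set at their bound against 3 counts. With 1 cell left out, described further on, 9 terminal genes were measured and 8 were higher. Of the 5 other members 2 were higher and 1 lower.

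The small proline-rich Sprr1 genes, cross-bridging proteins of the envelope, gave most member counts. Sprr1a was at 4914 CPM in imiquimod keratinocytes and 9089 CPM in Shi-Bi-Man keratinocytes (log2 ratio 0.89). It was at 8996 CPM in imiquimod stress keratin cells and 19757 CPM in Shi-Bi-Man granular cells. Spinous cells of both libraries held it, at 6689 and 11409 CPM, although only 27 cells stand behind the first value. Thinned to 500 counts per cell, 99.5% of granular cells and 77.4% of stress keratin cells had a Sprr1a count, against 16.4% and 40.0% of T and NK cells in the 2 libraries (99.7%, 92.4%, 30.5% and 55.1% before thinning, at median depths of 5812, 5507, 1006 and 780 counts). No cell fell under that depth. Sprr1b followed the same order, at 2090 and 3300 CPM in keratinocytes (log2 ratio 0.66), 5500 CPM in stress keratin cells and 7599 CPM in granular cells. Both genes turned direction at the imiquimod library's cell mix of the 5 layers held in both libraries, where Sprr1a was at 3674 and 2756 CPM (log2 ratio -0.42) and Sprr1b at 897.8 and 634.7 CPM (-0.50). That mix fixed the layers but not the clusters within them. In the upper follicle Sprr1a had a log2 ratio of -0.99 and Sprr1b of -1.66. Within its 2 clusters, held in unlike proportions, the ratios were -0.30 and -0.23 for Sprr1a and -1.24 and -0.85 for Sprr1b.

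The Sprr2 genes, shorter relatives with the same role, split within the family. Sprr2a3 was at 45.6 CPM with imiquimod and 6.36 CPM in the second library (log2 ratio -2.83, interval -3.26 to -2.45), and at 119 CPM in stress keratin cells against 3.92 CPM in granular cells. Sprr2d was at 669.8 and 915.1 CPM in keratinocytes (0.45) and at 2154 and 2672 CPM in those 2 layers. Lower Sprr2a3 was seen in layers that both libraries held, with log2 ratios of -1.62 in basal cells (45 and 26 counts) and -2.51 in cycling cells (68 and 4 counts), but not in the upper follicle (7 and 2 counts, 0.75 with an interval from -2.77 to 2.92). Sprr2k was also lower, at 11.4 and 6.46 CPM (log2 ratio -0.82), and without the granular and stress keratin layers its log2 ratio was 0.90. The third lower gene of the list, Sprr2b, has under 100 counts and is named because its values were seen: 77 imiquimod counts against 7.

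The other Sprr2 genes were higher with Shi-Bi-Man or equal. Sprr2h was at 420.0 and 1105 CPM in keratinocytes (log2 ratio 1.40), at 1288 CPM in stress keratin cells and at 3139 CPM in granular cells. Sprr2g was at 295.4 and 769.1 CPM (1.38), Sprr2f at 176.1 and 424.6 CPM (1.27), and Sprr2e at 136.9 and 261.3 CPM (0.93). Sprr2i had the largest ratio of the family, 139.3 and 459.0 CPM (1.72). The pseudogene Sprr2j-ps was at 67.6 and 66.0 CPM, a log2 ratio of -0.03 with an interval from -0.20 to 0.13.

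Among the Lce3 genes, late envelope genes linked to barrier repair, Lce3d was at 144.0 and 362.1 CPM in keratinocytes (log2 ratio 1.33) and Lce3c at 42.6 and 108.7 CPM (1.35). At the fixed mix of layers the Lce3d log2 ratio was 0.46 and that of Lce3c was -0.11. Lce3d was at 503.9 CPM in stress keratin cells and 1300 CPM in granular cells. Lce3e was at 21.5 and 30.1 CPM (0.48), and Lce3f at 44.4 and 48.9 CPM (0.14, interval -0.06 to 0.34). Lce3f stood at 153.9 CPM in stress keratin cells and 175.4 CPM in granular cells, closer together than Lce3d in the same cells. Per thinned cell, Lce3d was found in 8.14% of stress keratin and 24.6% of granular cells, against 0.44% and 1.95% of T and NK cells in the 2 libraries.

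**Figure D2:**
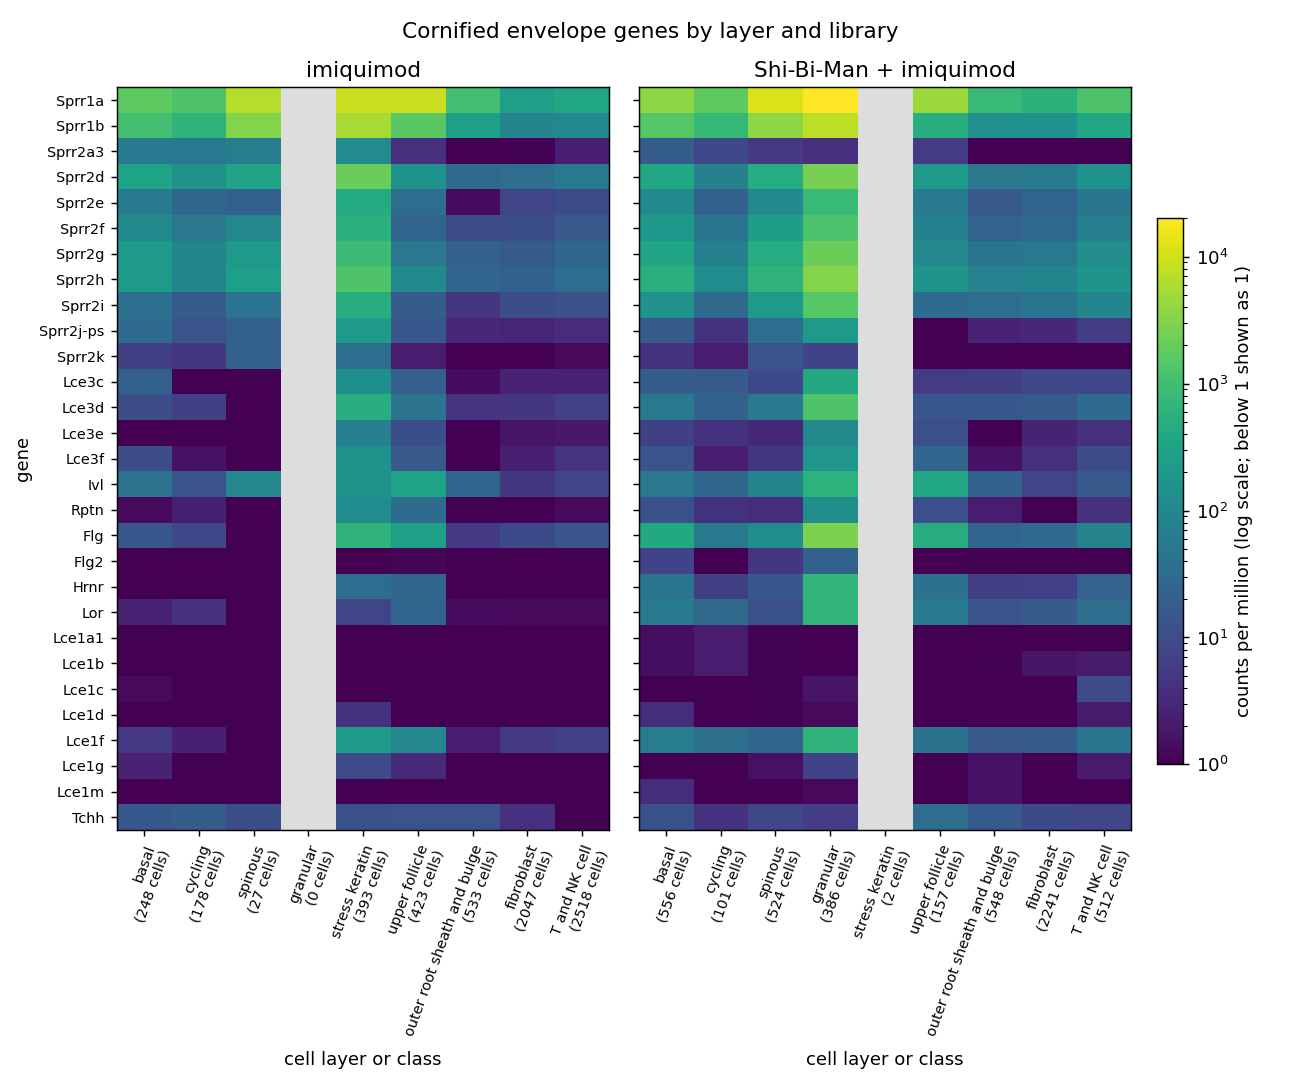
CPM (colour, log scale, values below 1 shown as 1) of the 29 named members (rows) in each keratinocyte layer and in 2 non-epithelial classes (columns) of the imiquimod library (left) and the Shi-Bi-Man library (right); grey marks layers with under 20 cells. Sprr1a and Sprr1b are bright in every layer. Among the named layers Flg, Hrnr and Lor are brightest in granular cells, and Sprr2a3 is brighter in the imiquimod panel.

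Terminal genes separated the granular from the stress keratin cells more than the inflammation-type genes did. Inflammation-type genes summed to 21569 CPM in stress keratin cells and 40964 CPM in granular cells, and terminal genes to 899.1 and 4806 CPM. Terminal genes were 4.002% of the counts of both lists in stress keratin cells (3.83% to 4.17%) and 10.5% in granular cells (10.3% to 10.7%). These are different layers in different libraries, so neither the layer nor the treatment can be named as the source of that difference.

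Filaggrin (Flg), the precursor that bundles keratin and yields natural moisturizing factor, was at 259.2 CPM in imiquimod keratinocytes and 920.7 CPM in Shi-Bi-Man keratinocytes (log2 ratio 1.83, interval 1.76 to 1.90). It was at 619.1 CPM in stress keratin and 2785 CPM in granular cells. The cells carrying it differed as well: at 500 counts per cell, 5.60% of stress keratin cells and 43.8% of granular cells had a Flg count, against 0.83% and 3.91% of T and NK cells (15.8%, 80.6%, 1.55% and 6.45% before thinning). Cells with at least 10 Flg counts numbered 31 with imiquimod, of which 18 were stress keratin, 8 upper follicle and 5 unnamed epithelial cells. With Shi-Bi-Man they numbered 160, of which 121 were granular, 17 unnamed epithelial and 15 basal cells.

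Hornerin (Hrnr), a filaggrin-like protein of the upper epidermis, was at 14.4 and 192.6 CPM in keratinocytes (log2 ratio 3.73), with 33.9 CPM in stress keratin and 694.5 CPM in granular cells. Loricrin (Lor), the main structural protein of the envelope, was at 8.65 and 263.5 CPM (4.92), with 7.83 CPM in stress keratin and 654.9 CPM in granular cells. The stress keratin level of Lor rests on 18 counts. Thinned, Lor was found in 0.25% of stress keratin and 9.59% of granular cells, against 0 of 2518 T and NK cells with imiquimod, which allows a share of up to 0.119% at 3 counts, and 1.76% with Shi-Bi-Man. Before thinning 3 of those 2518 cells had a Lor count. Filaggrin-2 (Flg2), a further member of that protein family, had 2 counts in imiquimod keratinocytes and 105 in Shi-Bi-Man keratinocytes.

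The Lce1 genes, late components of the normal envelope, behaved as 1 gene and a remainder. Lce1f was at 80.4 and 193.6 CPM in keratinocytes (log2 ratio 1.27), at 223.0 CPM in stress keratin cells and at 631.4 CPM in granular cells. Every other Lce1 gene named here had at most 32 counts in imiquimod keratinocytes. Against the limit of 3 counts for a gene at 0, Lce1a1 (250 counts with Shi-Bi-Man) was at least 79.6-fold higher, Lce1b (238 counts) at least 75.7-fold and Lce1m (217 counts) at least 69.1-fold. Lce1c had 2 and 227 counts (log2 ratio 6.44), Lce1d 10 and 150 (3.77), and Lce1g 32 and 114 (1.75). At the fixed mix of layers the Lce1g log2 ratio was -0.94.

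Most of those Lce1 counts came from 1 cell. A Shi-Bi-Man cell in an unnamed epithelial cluster, with 8480 counts in all, held 1413 of the 1728 retained counts of the Lce1 genes other than Lce1f, or 81.8%. Members made up 33.5% of its counts, among them 700 Lor counts (26.0% of the library's Lor), 483 Flg counts and 233 Lce1a1 counts (88.6% of the library's). It also held 72 counts of Kprp, a keratinocyte proline-rich protein, or 51.1% of the library's. Its Sprr1a count was 26 and its Krt10 count 18, so it held many terminal and few inflammation-type counts. The unnamed clusters as a whole were 194 and 277 cells, with terminal shares of both lists of 10.2% and 18.6% and summed fibroblast markers (9 of 9 detected) at 6839 and 5642 CPM, whose part in these values was not tested.

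Left out, that cell took part of the terminal difference with it. Without it the terminal sum had a log2 ratio of 1.99, Lor of 4.44, Flg of 1.75, Lce1c of 2.57 and Lce1d of 1.52. Lce1g went from 1.75 to -0.11. Lce1a1 kept 17 counts, at least 5.42-fold higher, Lce1b 18 counts, at least 5.73-fold, and Lce1m 20 counts, at least 6.37-fold. The terminal share of both lists with Shi-Bi-Man was 7.94%. Of the inflammation-type genes 10 were higher and 3 lower of 17 measured, as with it.

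The spread over cells differed by gene. In the imiquimod library 50% of the Flg counts lay in 7 cells and 50% of the Sprr1a counts in 153. With Shi-Bi-Man these were 33 and 299 cells, and 50% of the Lor counts lay in 6. Of the 139 Hrnr counts with imiquimod, 50% lay in 5 cells. For Rptn 50% lay in 4 imiquimod and 8 Shi-Bi-Man cells, and for Lce1f in 11 and 21. Values for Lor, Hrnr, Flg2, Rptn and the Lce1 genes, and for Flg with imiquimod, therefore rest largely on few cells, with 1 library per group.

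**Figure D3:**
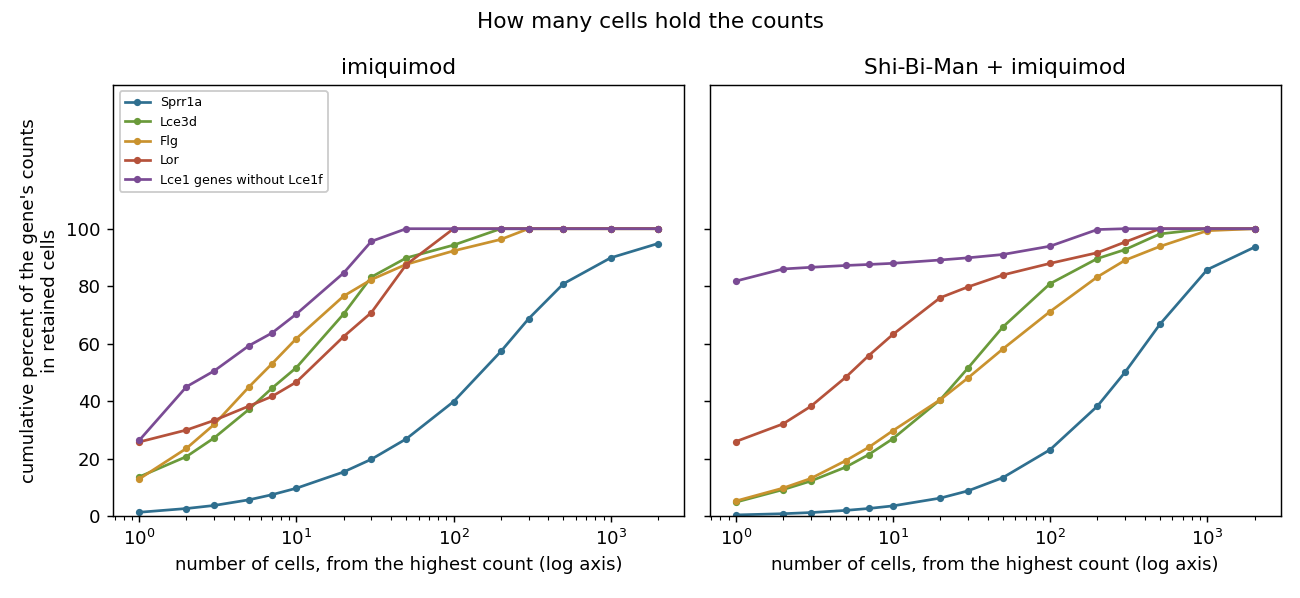
Cumulative percent of a gene's retained counts (vertical axis) against the number of cells taken from the highest count down (log axis), in each library. The Lce1 genes without Lce1f reach 81.8% in 1 Shi-Bi-Man cell, while Sprr1a needs 153 imiquimod or 299 Shi-Bi-Man cells to reach 50%.

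Involucrin (Ivl), an early scaffold protein of the envelope, was at 119.9 and 206.5 CPM in keratinocytes (log2 ratio 0.78). It was at 156.5 CPM in stress keratin cells and 594.9 CPM in granular cells. Its highest imiquimod level was in the upper follicle, at 316.6 CPM, against 378.6 CPM there with Shi-Bi-Man, and without the granular and stress keratin layers its keratinocyte log2 ratio was -0.40. Repetin (Rptn), a fused-type S100 protein of the envelope, was at 39.8 CPM in both libraries, with 124.3 CPM in stress keratin and 139.7 CPM in granular cells. Trichohyalin (Tchh), a protein of the inner root sheath, was at 13.1 and 11.7 CPM in keratinocytes (-0.17, interval -0.56 to 0.22), and 351 of its 839 Shi-Bi-Man counts lay in 1 inner root sheath cell.

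**Figure D4:**
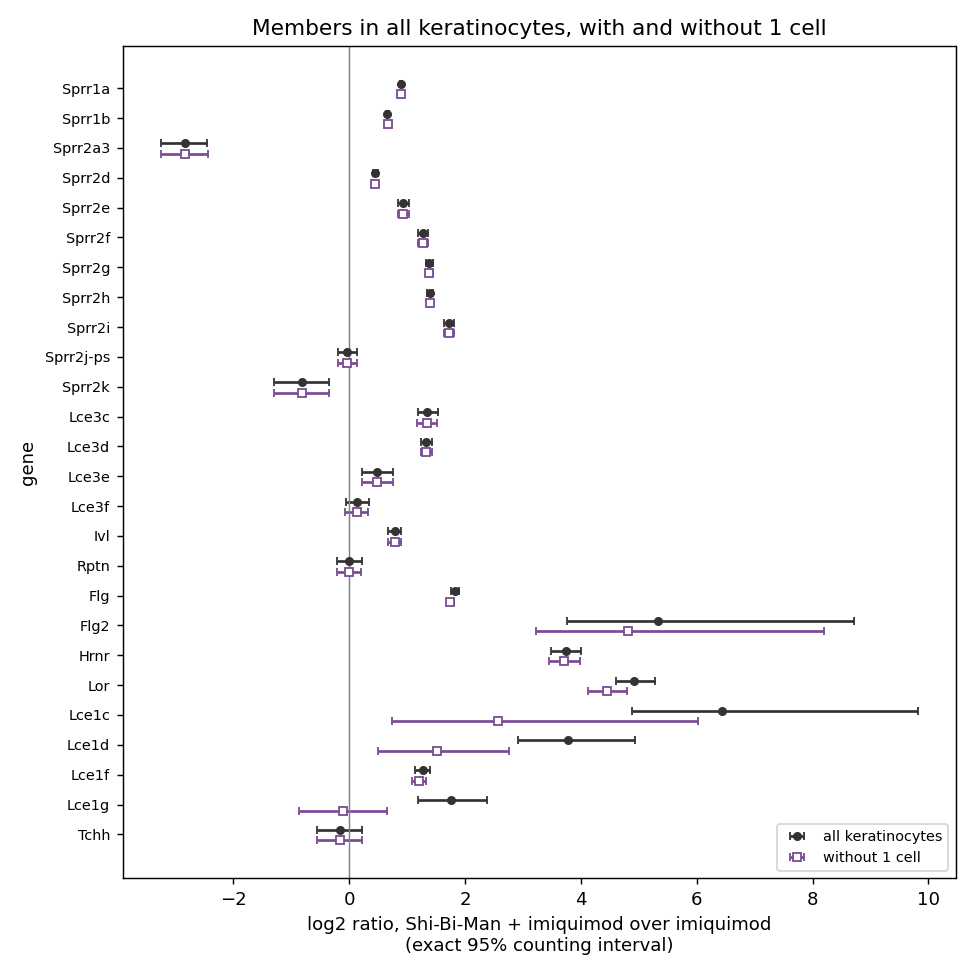
Log2 ratio of Shi-Bi-Man over imiquimod in all keratinocytes for the named members with counts in both libraries, with exact 95% counting intervals (filled circles), and the same without the 1 cell rich in Lce1 counts (open squares). Sprr2a3 (-2.83) lies far to the left, Hrnr (3.73) and Lor (4.92) to the right, and Lce1c, Lce1d and Lce1g move most when the cell is left out.

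Layers held in both libraries gave no single direction for the inflammation-type genes. In basal cells they summed to 3841 and 7043 CPM (log2 ratio 0.87), in cycling cells to 2391 and 2893 CPM (0.27), and in spinous cells to 10899 and 17340 CPM. Terminal genes had no count in the 27 imiquimod spinous cells and 193.3 CPM in the Shi-Bi-Man ones, within that library's free RNA range. In the upper follicle the inflammation-type genes summed to 11096 and 5756 CPM (-0.95), and in the outer root sheath and bulge to 1401 and 1243 CPM (-0.17, from -2.05 to 0.97 over the alternatives), where the Shi-Bi-Man value lies within that library's free RNA range. Weighted to the imiquimod library's mix of the 5 layers held in both, the inflammation-type sums were 5048 and 4136 CPM, a log2 ratio of -0.29. The terminal sums weighted likewise were 139.5 and 338.5 CPM, a log2 ratio of 1.28. This weighting fixed the layers and not the clusters within them. Cluster proportions differed between the libraries in basal cells, in the upper follicle and in the outer root sheath and bulge.

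Basal cells, which divide and attach to the basement membrane, gave 7 higher and 2 lower of 13 measured inflammation-type genes and 4 higher of 4 measured terminal genes. Of all 8464 genes measured there 16.2% were higher and 13.5% lower. Terminal genes summed to 28.4 CPM with imiquimod, near the free RNA range, and to 605.1 CPM in the Shi-Bi-Man cells, above it. Flg was at 14.2 CPM (11 counts) and 408.4 CPM (565 counts). The basal cells were 2 clusters, and the higher Shi-Bi-Man level lay in 1 of them, with 346 cells and a terminal sum of 954.8 CPM, against 84.5 CPM in the other with 210 cells, which is within that library's free RNA range. In the same 2 clusters with imiquimod the sums were 46.7 and 10.3 CPM. The first cluster was named from 8 supporting basal markers that did not include Krt5 or Krt14. It also had support from 2 granular markers, 1 spinous and 1 stress keratin marker. The second had 11 supporting basal markers, Krt5 and Krt14 among them. For the 7 higher inflammation-type genes, the log2 ratios in the first cluster were all positive, from 0.64 (Sprr2g) to 2.62 (Sprr2i). In the second they were 0.72 (Sprr1a), 1.41 (Lce3d, 2 and 9 counts), 0.57 (Sprr2h), 0.08 (Sprr2i), -0.21 (Sprr2e), -0.26 (Sprr2f) and -0.60 (Sprr2g). Krt10, a suprabasal keratin, was also higher in the Shi-Bi-Man basal cells, at 3145 and 8475 CPM, and summed fibroblast markers (9 of 9 detected) were at 967.8 and 2522 CPM. Their part in the basal values was not tested. Over the alternatives the basal terminal log2 ratio ranged from 1.08 to 5.41 around 4.38, with 1.08 where doublets were kept, and that of Flg from -0.043 to 6.24 around 4.78.

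Cycling cells had 1 higher and 2 lower of 9 measured inflammation-type genes, against 14.8% higher and 16.2% lower of all genes measured. Their terminal sums of 14.6 and 140.7 CPM lay within the free RNA range of each library. The higher inflammation-type gene was Sprr2i (20 and 14 counts, log2 ratio 0.92 with an interval from -0.20 to 1.96), and the lower ones were Sprr2a3 and Sprr2d (156.5 and 73.6 CPM, log2 ratio -1.07). The Shi-Bi-Man level of Sprr2i, 30.3 CPM, lay below the 38.8 CPM of blood endothelial and 93.1 CPM of T and NK cells there. It is read as background.

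Upper follicle cells, marked by Krt79, gave 5 higher and 6 lower of 14 measured inflammation-type genes, against 31.7% higher and 12.3% lower of all genes there. Ratios in this layer and the next carry a shift of all genes, whose median log2 ratio was 0.25 in the upper follicle and 0.22 in the outer root sheath and bulge. Sprr1a was at 8975 and 4529 CPM (log2 ratio -0.99) and Sprr1b at 1592 and 503.8 CPM (-1.66), both lower, whereas Sprr2f was at 24.2 and 76.9 CPM (1.68). Terminal genes summed to 431.0 and 615.0 CPM (0.52), and 3 of 4 measured ones were higher. The layer was made of 2 clusters in unlike proportions, 323 and 55 cells of one and 100 and 102 of the other, and within them the Sprr1a log2 ratios were -0.30 and -0.23 and the Sprr1b ratios -1.24 and -0.85. The cluster of 323 and 55 cells was named from 8 supporting upper follicle markers and also had support from 6 granular markers. With imiquimod it held 485 of the layer's 491 Flg counts and 534 of its 562 Ivl counts. Over the alternatives the Sprr1a ratio of the layer ranged from -1.37 to -0.11 and that of the inflammation-type sum from -1.33 to -0.12.

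The outer root sheath and bulge, the follicle's outer layer and stem cell zone, held the lowest inflammation-type sums of the named layers. There 7 of 9 measured inflammation-type genes were higher and 1 lower, and 3 of 3 measured terminal genes were higher, against 28% higher and 10.8% lower of all 10533 genes. The terminal sums, 8.79 and 68.6 CPM, lay below the free RNA range of both libraries, so these counts are read as background. The Shi-Bi-Man inflammation-type sum also lay within that library's free RNA range. None of the 7 higher inflammation-type genes exceeded there the highest level among that library's non-epithelial classes, so these 7 are read likewise. The layer was made of 3 clusters in unlike proportions, 177 and 60, 301 and 72, and 55 and 416 cells. Within them, in that order, the Sprr1b log2 ratios were 0.83, -1.04 and 1.21 and the Sprr2d ratios 0.10, 0.83 and 0.0019.

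The other genes of the pathway were taken from lists by role, and their counts stand against the 14.4% higher and 12% lower of all genes measured in keratinocytes. These keratinocyte values pool layers that the libraries held unequally. Several genes, such as Casp14, Asprv1, Cdsn, Alox12b, Krt10 and Krt77, were also layer-naming markers. Counts in single layers stand against 16.2% higher and 13.5% lower in basal cells. The shares were 31.7% and 12.3% in the upper follicle, and 28% and 10.8% in the outer root sheath and bulge. None of the 4 measured cross-linking transglutaminases passed 1.5-fold: Tgm1, the membrane-bound enzyme of the envelope, was at 50.04 and 55.6 CPM in keratinocytes (log2 ratio 0.15, interval -0.03 to 0.34), Tgm3 at 50.9 and 74.0 CPM (0.54), Tgm5 at 43.0 and 30.2 CPM (-0.51), and Tgm2 had 20 and 30 counts. Of 12 measured filaggrin processing genes 5 were higher and 2 lower, the lower ones near the share of all genes. In basal cells 7 of 10 were higher and 0 lower, and in the upper follicle 4 of 11 were higher and 4 lower. Casp14, a protease that degrades filaggrin, was at 188.7 and 299.4 CPM (0.67), Asprv1, which cleaves profilaggrin, at 678.9 and 1100 CPM (0.70), and Hal, which makes urocanic acid from filaggrin's histidine, at 57.1 and 243.7 CPM (2.09). The kallikrein Klk5 had a log2 ratio of 1.62 and its inhibitor Spink5 of 0.91.

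Of 10 measured scaffold and corneodesmosome genes 6 were higher and 0 lower. In basal cells these were 6 and 0 of 10, and in the upper follicle 0 and 1 of 10. Dsg1a, a desmosomal cadherin, was at 262.8 and 652.3 CPM (log2 ratio 1.31), Cdsn, corneodesmosin, at 47.0 and 90.1 CPM (0.94), and Evpl, envoplakin, at 76.8 and 141.3 CPM (0.88). Of 15 measured lamellar lipid genes 7 were higher and 0 lower, with Aloxe3 at 2.83 and Alox12b at 2.29, the lipoxygenases that oxidize acylceramides, and Ugcg at 0.92. Of 11 measured suprabasal keratin and secreted genes 8 were higher and 1 lower. Krt10 was at 6518 and 20980 CPM (1.69) and Krt1 at 6021 and 11500 CPM (0.93), and the largest ratios were those of Krt77 (4.71), Mt4 (4.30) and Krt2 (4.28, on 1 and 30 counts). In basal cells 9 of 15 lamellar lipid genes were higher and 0 lower, and 7 and 0 of 10 suprabasal ones. In the upper follicle these were 2 and 4 of 14, and 3 and 4 of 10. In the outer root sheath and bulge they were 3 and 3 of 11, and 3 and 3 of 10.

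The other genes of the epidermal differentiation complex held the largest difference in the opposite direction, with 4 higher and 3 lower of 15 measured. S100a8, an alarmin subunit, was at 2529 CPM in imiquimod keratinocytes and 22.1 CPM in Shi-Bi-Man keratinocytes (log2 ratio -6.83), S100a9, its partner, had a ratio of -6.13, and Kprp a ratio of 3.90. Krt6a was at 1362 and 200.6 CPM (-2.76) and Krt16 at 1234 and 357.8 CPM (-1.79), the stress keratins by which the imiquimod layer was named. In basal cells, held in both libraries, S100a8 was at 1184 and 7.95 CPM (-7.15), while Sprr1a was at 1731 and 3714 CPM (1.10). Neutrophil markers, of which 5 and 6 of 9 were detected, summed to 14.2 and 13.0 CPM in these basal cells, and S100a8 in T and NK cells was at 117.4 and 10.1 CPM. Sprr1a and the alarmins, known for induction in the same conditions, thus lay on opposite sides in these basal cells. The free RNA did likewise, so this was not particular to basal cells. Sprr1a was at 368.1 and 1262 CPM in T and NK cells. In fibroblasts Sprr1a was at 262.7 and 584.6 CPM and S100a8 at 89.1 and 3.34 CPM. The Shi-Bi-Man basal level of S100a8 lay below that of T and NK cells. Of 21 measured transcription factors 3 were higher, near the 14.4% of all genes, and 1 was lower. The grainyhead-like factors Grhl1 and Grhl3 had log2 ratios of 0.90 and 0.86, and Fosl1, an AP-1 subunit, of 0.82.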

How the data were processed

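The 2 count matrices, 1 per group, hold raw counts per gene and cell barcode as deposited by the authors, without normalization. Per the submitters' processing notes the genome build was mm10 (GRCm38). The aligner, the counter, the treatment of reads with several matches and whether molecular identifiers were collapsed are not given in the sources used here, so intervals cover counting error only. The value columns that matched no sample numbered 0.

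Cells with under 200 genes or over 20% mitochondrial counts were removed, and Scrublet calls were dropped (0 in the imiquimod library, so doublets stay there). Cells were clustered with scanpy 1.11.5 in Python 3.11.15 (2000 variable genes without the members, 30 components, 15 neighbours, Leiden resolution 1), both libraries together, with no batch correction. Clusters were named from at least 3 supporting markers, and those with under 50 cells were left unnamed. A cluster with 8 neutrophil and 7 mast cell markers also stayed unnamed. Counts were summed by layer and library and divided by all counts there, times 1000000, to give CPM. Intervals are exact Poisson (CPM), Clopper-Pearson (shares) and conditional binomial (log2 ratios), at 95%. Shares of cells with a count were compared after thinning to 500 counts. Code was tested on simulated data.

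A gene was measured with at least 20 counts over both libraries and called at 1.5-fold. No test between groups was made, since each group has 1 library. Members with at least 100 counts in epithelial cells were named, and from each pathway list the 3 measured genes with the largest absolute log2 ratio, plus Tgm1, Tgm3, Casp14, Asprv1, Krt1, Krt10, Krt6a, Krt16 and S100a8. The members and lists were chosen with earlier results of these data known. Alternatives were edgeR 4.0.16 TMM scaling, DESeq2 1.42.0 size factors, totals without the members, means over cells, other cell filters, doublet treatments and resolutions, members among the clustering genes, subtraction of the fibroblast level, a fixed layer mix, and thresholds of 50 counts or 2-fold. Leaving out 1 cell, the unnamed clusters, 2 layers or the 10 richest cells, and the fixed layer mix for single members, were added after seeing the data. Sequences are from the GENCODE and RefSeq references of GRCm38.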

Additional observations from a re-analysis of the deposited data

Results flagged for a closer look

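Several members lay in opposite directions in 2 layers that both libraries held. With 1 library per group these differences between layers were not tested. Values are log2 ratios of Shi-Bi-Man over imiquimod whose counting interval leaves out 0.

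Lce1f was higher with Shi-Bi-Man in basal cells (3.51), cycling cells (3.82) and the outer root sheath and bulge (2.76), and lower in the upper follicle (-1.25). Lce3d was higher in basal cells (2.35) and in the outer root sheath and bulge (1.78), and lower in the upper follicle (-1.48), where 5 Shi-Bi-Man counts stand behind the value. Sprr1a was higher in basal cells (1.10) and lower in the upper follicle (-0.99). The inflammation-type genes summed did likewise, at 0.87 and -0.95. Both layers were made of clusters held in unlike proportions. Within clusters the Sprr1a log2 ratios were 1.01 and 0.72 in basal cells, and smaller in the upper follicle than in the whole layer, at -0.30 and -0.23. Sprr2d was lower in cycling cells (-1.07) and higher in the outer root sheath and bulge (0.71). Tchh was lower in cycling cells (-1.82, on 23 and 2 counts) and higher in the upper follicle (1.49, on 22 and 12 counts). The Lce1f level in cycling cells and the Lce1f and Lce3d levels in the outer root sheath and bulge do not exceed the highest level among the non-epithelial classes of the same library. Nor do the Shi-Bi-Man upper follicle levels, 39.9 CPM for Lce1f (44.5 CPM in T and NK cells) and 14.2 CPM for Lce3d (37.0 CPM in macrophages and monocytes). Within the 2 upper follicle clusters the Lce1f log2 ratios were -0.68 (-1.83 to 0.17) and 0.48 (-1.88 to 2.67). Those of Lce3d were -2.30 (-8.19 to -0.35) and 1.14 (-1.37 to 3.96). The Shi-Bi-Man levels of Sprr2d, 73.6 CPM in cycling cells and 49.8 CPM in the outer root sheath and bulge, likewise lie within or below the 60.8 to 155.8 CPM of that library's 4 non-epithelial classes.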

How the results depend on the processing

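The terminal sum was higher with Shi-Bi-Man in keratinocytes under all 19 alternatives, and the inflammation-type sum under 18 of 19. Of 1755 log2 ratios computed under alternatives, for 100 results, 1423 moved by no more than counting error, 299 moved by more without reversing, and 33 reversed. The largest change to these 2 sums came with the fixed imiquimod mix of the 5 layers held in both libraries, which took the inflammation-type sum from 0.88 to -0.29 and the terminal sum from 2.25 to 1.28. That mix fixed the layers and not the clusters within them. The cause of other changes was not tested.

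The inflammation-type log2 ratio in keratinocytes was 0.86 with TMM scaling, 0.90 with DESeq2 size factors, 0.89 with totals without the members, 0.93 as a mean over cells, 0.86 with the fibroblast level subtracted, 0.90 at 10% mitochondrial counts, and 0.91 without the 10 keratinocytes richest in terminal counts. The terminal log2 ratio was 2.41 as a mean over cells, 2.36 at resolution 2, 1.99 without the 1 cell rich in Lce1 counts, 2.16 without the unnamed epithelial clusters, 2.05 without the granular and stress keratin layers, and 2.62 without the 10 richest keratinocytes. Higher terminal genes numbered 8 without the 1 cell, 5 without the unnamed clusters and 8 without the 10 richest keratinocytes, instead of 17. The terminal percent of the Shi-Bi-Man library was 9.53% with the fibroblast level subtracted, 9.16% at 10% mitochondrial counts, 9.17% at 500 genes, 9.05% with the top 8% of doublet scores removed, 7.94% without the 1 cell, 8.13% without the unnamed clusters, 7.77% without the 2 layers and 5.81% without the 10 richest keratinocytes. In the imiquimod library it was 3.69% with the top doublet scores removed, 3.55% at resolution 2, 3.51% without the unnamed clusters, 3.60% without the 2 layers and 1.85% without the 10 richest keratinocytes.

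Single members reversed as follows. As a mean over cells, Hrnr, Lce3d and Lce3f in the upper follicle gave -0.030, 0.71 and -0.54. At 10% mitochondrial counts Sprr2g in basal cells gave -0.010. At 500 genes Ivl and Sprr2i in cycling cells gave -0.31 and -0.26. With doublets kept, Flg, Sprr2f and Sprr2g in basal cells gave -0.043, -0.036 and -0.14, and Rptn and Sprr2i in the upper follicle gave 0.15 and -0.44. At resolution 2, Sprr2e, Sprr2f and Sprr2g in basal cells gave -0.14, -0.14 and -0.10. Sprr2j-ps in basal cells gave 0.16 with the top doublet scores removed and 0.63 with the members among the clustering genes, where Sprr2d in cycling cells gave 0.34. Sprr1b in the outer root sheath and bulge gave 0.64 at 10% mitochondrial counts, 0.063 with doublets kept, 1.01 with the top doublet scores removed, 0.59 at resolution 0.5, 0.77 at resolution 2 and 0.59 with the members among the clustering genes. Lce1g in keratinocytes gave -0.11 without the 1 cell, -0.33 without the unnamed clusters and -0.52 without the 10 richest keratinocytes. At the fixed layer mix, Sprr1a, Sprr1b, Lce3c and Lce1g in keratinocytes gave -0.42, -0.50, -0.11 and -0.94. Without the granular and stress keratin layers Ivl gave -0.40 and Sprr2k 0.90.

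No paired analysis was possible because each group has 1 library. No replicate could be left out for the same reason. Flg in basal cells ranged from -0.043 to 6.24 over the alternatives.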
